A study of Mus musculus with 23 samples.

Results

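The DC3 cells were splenic dendritic cells of wild-type BALB/c mice, sorted as a CD8- CD172lo fraction and profiled by RNA sequencing. Dendritic cells (DCs) take up antigen and present it to T cells, and splenic classical DCs fall into a CD8+ lineage that depends on the factors Irf8 and Batf3 and excels at cross-presentation, and a CD172+ lineage that relies on Irf4, Klf4 and Notch2. A DC fraction that lacks CD8 and is low for CD172, the product of Sirpa, lies between these gates and is less well defined. The members were the 6 DC3 libraries of the 23 libraries in the series, taken by their population label: 4 from mice given TLI and 2 from untreated mice. TLI is not spelled out in the labels. The abbreviation is in common use for total lymphoid irradiation, a regimen given to prepare transplant recipients. The labels give no dose, time after treatment or age. All groups were wild type and of the same strain, and each library was labelled as a pool or set, with 4 sets for TLI and 2 for untreated mice, and no number of animals. The other 17 libraries held the DC1a, DC1b and DC2 populations of the same sets, except that TLI set 2 had no DC2 library. TLI DC2 thus had 3 libraries.

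The untreated libraries and TLI pools 1 and 2 belonged to batch 1, as the labels call it, and TLI pools 3 and 4 belonged to batch 2, which held no untreated sample of any population. Each TLI library is therefore given by pool below, and the batch 1 libraries are also given alone, 2 against 2. The 6 libraries held 21107794 to 35122370 counts, and between 17851 and 24407 genes had at least 1 count. Levels are given as CPM, the counts of a gene scaled to a fixed library total after correction by the TMM method of edgeR, which allows for a few very abundant genes. A level compares 1 gene between libraries. The difference between groups is the log2 fold change fitted by edgeR's quasi-likelihood model over all 23 libraries with group and batch as terms, where a positive value means higher in TLI. A gene passed the threshold at a Benjamini-Hochberg adjusted p under 0.05 over the 19597 genes tested. No label says how the pools were made, so the tests measure the spread between these libraries.

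The DC3 fraction carried genes of the Batf3-dependent lineage in every library. Xcr1, the receptor for the chemokine XCL1, was at 146 and 132 CPM in the untreated libraries and at 192, 436, 192 and 266 CPM in TLI pools 1 to 4. Clec9a, a receptor for dead-cell actin, lay between 206 and 338 CPM in the 6 libraries, and Irf8 lay between 533 and 1081 CPM. The sorting markers followed the label in that both were low. Sirpa was at 0.939 and 0.214 CPM in the untreated libraries and at 0.54, 4.83, 1.04 and 6.3 CPM in the TLI libraries. Cd8a was at 0.352 and 37.9 CPM in the untreated libraries, and at 5.25, 6.22, 2.46 and 0.23 CPM in the TLI libraries, so that untreated pool 2 had the highest level. Itgax, which encodes CD11c, was at 123 and 201 CPM in untreated and 81.6, 77, 127 and 95.9 CPM in TLI libraries, and H2-Ab1, a class II chain, was at 4324 CPM or more throughout. Genes of the CD172+ lineage were mixed. Of its defining markers, Clec4a4 and Esam did not exceed 8.98 CPM in any of the 6, while Irf4, at 50.4 and 83.5 CPM, lay within the untreated DC2 range of 32.9 to 150.3 CPM in both untreated DC3 libraries. Untreated DC1b had similar Irf4 levels, at 62.3 and 77.4 CPM. Irf4 is also on the list of plasma cell markers, which summed to 8719 and 4279 CPM in untreated DC3. The highest such sum in an untreated DC1a, DC1b or DC2 library was 980 CPM. The part of plasma cells in the Irf4 level was not tested. The summed level of the 20 genes listed for this lineage was 2118 and 3264 CPM in untreated DC3 and 1962 to 3999 CPM in TLI DC3. That was above untreated DC1a, at 1392 and 1482 CPM, and below untreated DC2, at 6713 and 7681 CPM. Untreated DC1b, at 3715 and 5817 CPM, lay above untreated DC3, and TLI DC3 pool 2, at 3999 CPM, lay within the untreated DC1b range. None of these marker genes passed the threshold between TLI and untreated DC3.

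Genes of other cell types differed between the libraries and are given first, since they touch several results. Hemoglobin transcripts made up 13.3% and 1.92% of the counts in TLI pools 1 and 2, and 0.0382% and 0.064% in TLI pools 3 and 4, against 0.0144% and 0.00561% in the untreated libraries. The summed level of 16 T cell markers was 130.1 and 71.1 CPM in untreated DC3, 1032 and 395 CPM in TLI pools 1 and 2, and 8.1 and 54.1 CPM in TLI pools 3 and 4. The summed level of the NK cell markers was 895 and 534 CPM in untreated DC3, 6289 and 1610 CPM in TLI pools 1 and 2, and 343 and 542 CPM in TLI pools 3 and 4. The summed level of 16 B cell markers was 33602 and 18914 CPM in untreated DC3, 16954 and 10961 CPM in TLI pools 1 and 2, and 30240 and 55776 CPM in TLI pools 3 and 4. It did not exceed 6140 CPM in untreated DC1a, DC1b or DC2, but reached 49867 CPM in a TLI DC1b library. Of these markers, the kappa light chain constant gene Igkc took 0.93% to 5.44% of the counts. It made up most of this sum in all 6 DC3 libraries. Pax5, a defining B cell factor, was at or below 0.678 CPM in all 6 DC3 libraries. In sorted bulk samples, fewer cells of a type and less RNA per cell cannot be told apart.

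**Figure D1:**
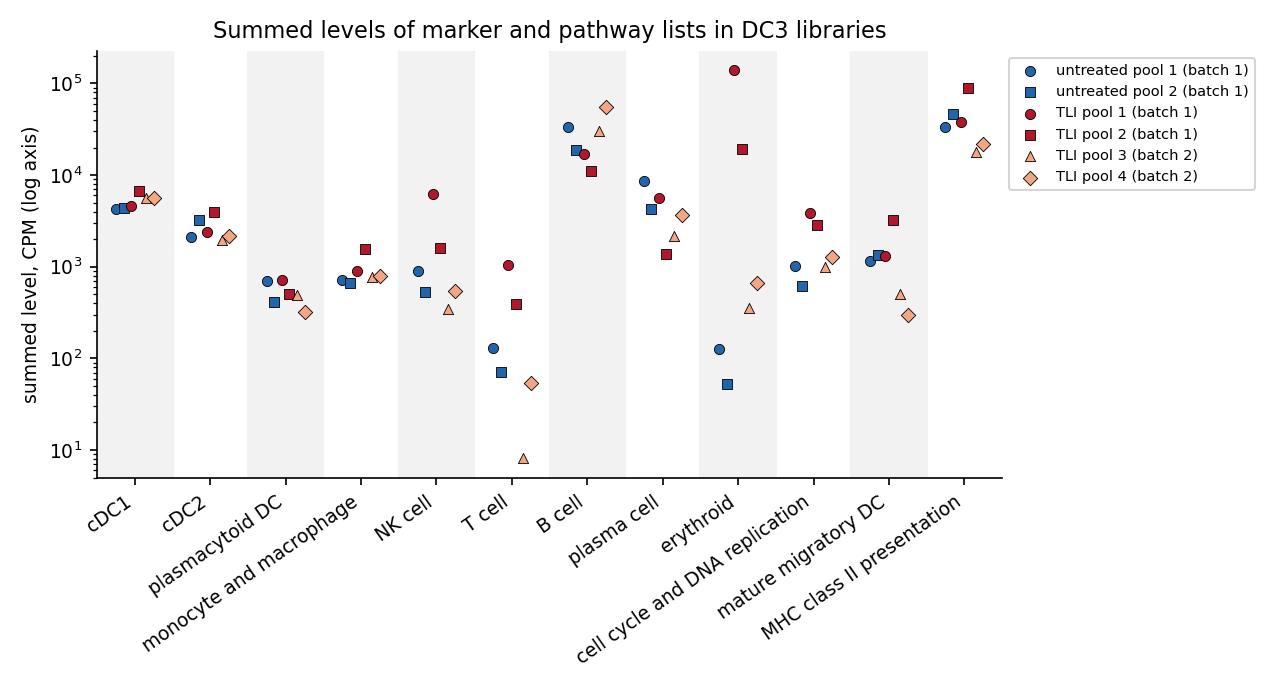
Summed levels in CPM (log axis) of marker and pathway lists in the 6 DC3 libraries, 1 point per library, with untreated in blue, batch 1 TLI in dark red and batch 2 TLI in light red. Erythroid, T cell and NK cell markers were highest in TLI pools 1 and 2, while the cDC1 markers lay between 4293 and 6707 CPM in all 6.

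The first question was which genes differed between TLI and untreated DC3. Few did. Of the 19597 genes tested, 5 passed the threshold, or 0.0255%, with 2 higher (0.0102%) and 3 lower (0.0153%) in TLI. The genes with higher levels were Ms4a6d, a tetraspan membrane protein of the CD20 family known from myeloid cells, and Tada1, a subunit of the SAGA transcription coactivator. The genes with lower fitted levels were Rn7sk, the small nuclear RNA that holds the elongation factor P-TEFb inactive, Igkv8-16, a kappa light chain variable gene, and Gm37472, an unspliced transcript model with no known function. At an unadjusted p under 0.05, 763 genes were higher (3.89%) and 1281 lower (6.54%), or 10.4% in all, in the same edgeR fit. The 4 TLI libraries all lay above both untreated libraries for 826 genes (4.21%) and below both for 1821 genes (9.29%), or 13.5% in all. With 4 libraries against 2, such separation also arises often without a difference, so these shares are a description. The common biological coefficient of variation was 1.08, and the median log2 fold change over the genes tested was -0.05.

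**Figure D2:**
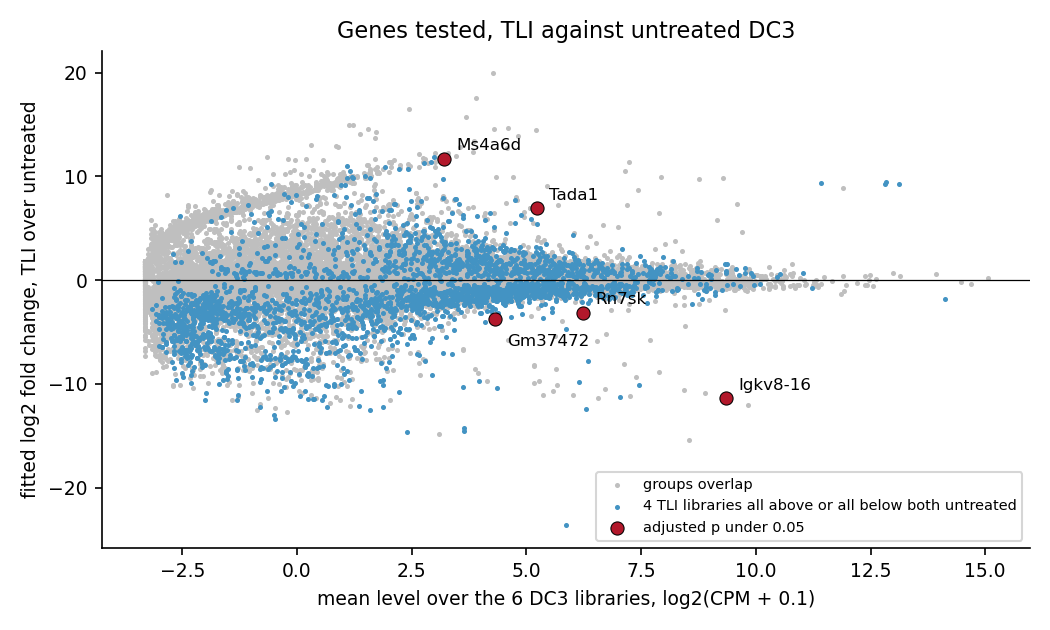
Fitted log2 fold change of TLI over untreated DC3 (y axis) against the mean level of the 6 DC3 libraries in log2(CPM + 0.1) (x axis), 1 point per gene tested, with non-overlapping genes in blue and the 5 genes past the threshold in red. The 5 genes stand among many others with fitted changes as large, most of them at low mean levels.

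Ms4a6d (ENSMUSG00000024679, chr19:11586604-11604849 on GRCm38, minus strand) had no count in either untreated DC3 library. It was at 19.1, 20.8, 4.6 and 10.2 CPM in TLI pools 1 to 4, or 389, 585, 142 and 353 counts. All 4 TLI libraries lay above both untreated ones, and the batch 1 pools were higher than the batch 2 pools. The mean of 13.7 ± 7.63 CPM (SD, n = 4) was at least 122-fold higher than the floor of 3 counts in each untreated library. The adjusted p was 0.000103, with a fitted log2 fold change of 11.70 ± 1.04 (SE) that depends on the prior count because 1 group is at 0.

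The same gene was also higher after TLI in the other populations, from different starting levels. In DC1a it was at 0.148 and 0.411 CPM in untreated libraries and between 3.7 and 9.31 CPM in TLI libraries. In DC1b it was at 57.6 and 62.5 CPM in untreated and between 338 and 444 CPM in TLI libraries, and in DC2 at 176 and 221 CPM against 375 to 657 CPM. The fitted log2 fold changes were 4.79 in DC1a, 3.01 in DC1b and 1.86 in DC2. The difference between the DC3 change and the mean of these 3 was 8.48 ± 1.09 (SE) on the log2 scale, with an adjusted p of 0.0079 by the edgeR interaction contrast. This size, too, rests on the untreated DC3 libraries being at 0.

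Other Ms4a genes were detected in all DC3 libraries. Ms4a6b was at 50.9 and 10.1 CPM in untreated DC3 and at 221, 93, 35.5 and 129 CPM in TLI pools 1 to 4, and the groups overlapped. Ms4a4c was at 99.5 and 95.7 CPM in untreated and at 235, 115, 187 and 210 CPM in TLI libraries, with no overlap, a log2 fold change of 0.73 ± 0.38 and an adjusted p of 0.519 by edgeR. Ms4a6c was at 400.2 and 289 CPM in untreated and at 322, 235, 792 and 903 CPM in TLI libraries, high in batch 2 and within the untreated range or below it in batch 1. These family members were chosen after the values of Ms4a6d were seen.

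Tada1 (ENSMUSG00000026563, chr1:166379097-166393621 on GRCm38, plus strand) was at 0.548 and 0.321 CPM in untreated DC3. In TLI pools 1 to 4 it was at 18.3, 67.6, 65.9 and 71.4 CPM, with no overlap between the groups. The means were 0.434 ± 0.161 CPM (SD, n = 2) and 55.8 ± 25.1 CPM (SD, n = 4), and the log2 fold change was 6.97 ± 1.13 (SE), with an adjusted p of 0.0417 by edgeR. In the other 17 libraries Tada1 lay between 4.65 and 85.9 CPM, so the untreated DC3 libraries stood below all of them. The difference from the change in the other populations did not pass the threshold, with a log2 difference of 7.12 ± 1.16 and an adjusted p of 0.0565.

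Tada1 shares 1054 exonic bases, or 25.6% of its exonic length, with Pogk on the opposite strand, and the counting was not stated to use strand. Reads in this stretch cannot be told apart. Pogk, which encodes a zinc finger protein, was at 18.2 and 16 CPM in untreated DC3 and at 1.33, 3.48, 1.13 and 0 CPM in TLI pools 1 to 4. The level of Pogk was thus low where that of Tada1 was high. The sum of both genes was 18.7 and 16.3 CPM in untreated DC3 and 19.6, 71, 67 and 71.4 CPM in the TLI libraries, which puts TLI pool 1 close to the untreated libraries. The assignment of these reads to either gene is uncertain.

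Gm37472 (ENSMUSG00000102151, chr14:61677443-61681494 on GRCm38, minus strand) was at 44.6 and 39.3 CPM in untreated DC3 and at 4.02, 2.13, 16 and 12.8 CPM in TLI pools 1 to 4. The groups did not overlap, and the means were 42 ± 3.76 CPM (SD, n = 2) and 8.76 ± 6.74 CPM (SD, n = 4). The log2 fold change was -3.70 ± 0.48 (SE), with an adjusted p of 0.00544 by edgeR. Its range in the TLI libraries of the other populations, 2.49 to 60.4 CPM, overlapped that in their untreated libraries, 9.11 to 44.9 CPM.

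The other 2 calls were of another kind, because their groups overlapped. Rn7sk (ENSMUSG00000065037, chr9:78175303-78175633 on GRCm38, minus strand) was at 134.8 and 46.4 CPM in untreated DC3, at 11.8 and 8.28 CPM in TLI pools 1 and 2, and at 112 and 137 CPM in TLI pools 3 and 4. The batch 1 TLI libraries lay below both untreated ones, and the batch 2 TLI libraries lay within or above the untreated range. The log2 fold change of -3.12 ± 0.44 (SE; adjusted p 0.00881, edgeR) is the difference after the batch term, and without that term it was -0.43 with an adjusted p of 0.995. The 7SK RNA is shown because it is the one small structured RNA among the calls and is not polyadenylated in the cell. The GENCODE M21 transcript has 331 bases and is 1 exon, and its last 120 bases, from base 212 on (chr9:78175303-78175422), are given 5′ to 3′. The capitals mark the longest runs of A in the whole RNA, which are 3 bases long and occur 2 times.

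Rn7sk: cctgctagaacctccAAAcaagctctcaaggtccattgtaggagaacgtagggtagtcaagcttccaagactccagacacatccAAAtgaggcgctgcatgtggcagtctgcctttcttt

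Other small noncoding RNAs followed the same split by batch. The misc_RNA genes Gm24447 and Gm26315 were chosen after their values were seen. Gm24447 was at 31.3 and 21.7 CPM in untreated DC3, 4.51 and 4.26 CPM in TLI pools 1 and 2, and 71.6 and 95.3 CPM in TLI pools 3 and 4. Gm26315 was at 17.7 and 12.3 CPM in untreated DC3, 3.04 and 2.35 CPM in TLI pools 1 and 2, and 30.3 and 37.2 CPM in TLI pools 3 and 4. Both were lowest in the batch 1 TLI libraries and highest in the batch 2 TLI libraries. Over 324 misc_RNA, snRNA, snoRNA and scaRNA genes tested, the summed level was 596 and 448 CPM in untreated DC3, 288 and 109 CPM in TLI pools 1 and 2, and 2470 and 2220 CPM in TLI pools 3 and 4. Of these, 102 lay below both untreated libraries in both batch 1 TLI libraries (31.5%), where 20.5% of all genes tested did so. The part of library preparation in this split was not tested.

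Igkv8-16 (ENSMUSG00000076591, chr6:70386672-70387252 on GRCm38, minus strand) was at 189 and 1735 CPM in untreated DC3 and at 0.196, 0.675, 33.5 and 1958 CPM in TLI pools 1 to 4. The groups overlapped, since TLI pool 4 had the highest level. The log2 fold change was -11.40 ± 1.60 (SE; adjusted p 0.00881, edgeR) after the batch term and -0.95 (adjusted p 0.994) without it. Variable genes mark the light chain that a B lineage cell rearranged, so each library can hold a few of them at high levels. In TLI pool 1, Iglv2 made up 20.8% of the summed level of immunoglobulin V genes. In TLI pool 2, Igkv3-4 alone made up 64.8% of it, and in TLI pools 3 and 4 Igkv6-15 made up 37.4% and 51.1%. In the untreated libraries the leading gene made up 12.9% (Igkv7-33) and 15.1% (Igkv8-16). The summed level of the 168 immunoglobulin V genes tested overlapped between the groups, at 21880 and 11465 CPM in untreated and 15035, 5744, 16522 and 33087 CPM in TLI DC3.

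**Figure D3:**
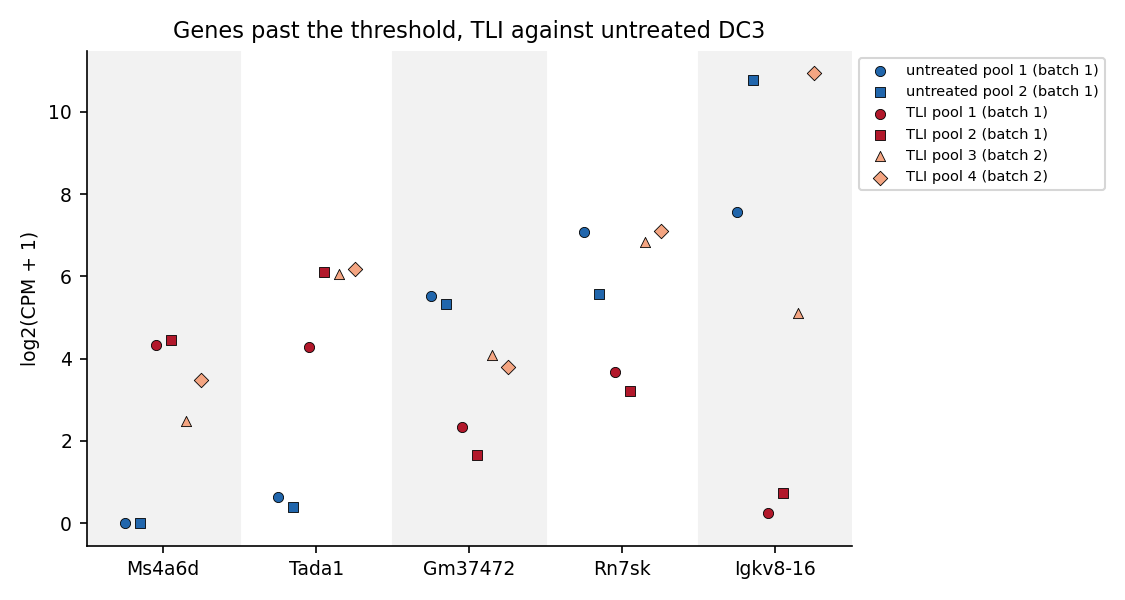
Levels in log2(CPM + 1) of the 5 genes past the threshold in each DC3 library, 1 point per library. Ms4a6d, Tada1 and Gm37472 separated the 4 TLI libraries from both untreated ones, while Rn7sk and Igkv8-16 overlapped through the batch 2 TLI libraries.

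In the batch 1 DC3 libraries alone, 2 against 2, 14108 genes were tested, none passed the threshold (0.00%), and 1072 had an unadjusted p under 0.05 by edgeR (7.60%). The smallest adjusted p was 0.489. The directions of the 5 calls were kept, with log2 fold changes of 11.99 for Ms4a6d, 6.55 for Tada1, -3.76 for Gm37472, -3.18 for Rn7sk and -11.09 for Igkv8-16. With the batch 1 libraries of all populations in the fit, 2 genes passed, Ms4a6d being 1 of them. DESeq2 on all 23 libraries called 730 genes, 457 higher and 273 lower, including the 5. Leaving out a single DC3 library ended the call of Tada1 in 5 of 6 cases, all but TLI pool 1, with adjusted p between 0.0515 and 0.492. The call of Rn7sk was lost without untreated pool 1 (adjusted p 0.151) or TLI pool 2 (0.0894), and that of Igkv8-16 without untreated pool 2 (0.0728), TLI pool 1 (0.0672) or TLI pool 2 (0.0622). Ms4a6d and Gm37472 passed in all 6 of these fits.

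The protein-coding genes next in order were named by smallest unadjusted p among those with no overlap between the groups and a mean of at least 5 CPM in the higher group. None of those below passed the threshold. Kpna2, a nuclear import receptor high in dividing cells, was at 9 and 4.64 CPM in untreated DC3 and at 143, 175, 12.7 and 44.7 CPM in TLI pools 1 to 4 (log2 fold change 4.40 ± 0.83, adjusted p 0.0696, edgeR). Knstrn, a component of the mitotic spindle and kinetochore, was at 0 and 0.25 CPM in untreated and at 18.2, 34.1, 12.2 and 3.48 CPM in TLI libraries. For both genes the batch 1 TLI libraries were the highest. Gm10184, a gene model, was at 2.62 and 1.78 CPM against 53.5, 61.4, 6.78 and 13.8 CPM (log2 fold change 4.52 ± 0.77, adjusted p 0.0513). Kctd6, a cullin adaptor, had no count in untreated DC3 and was at 11.2, 6.08, 7.94 and 2.13 CPM in TLI pools 1 to 4, a mean at least 60.9-fold higher than the floor of 3 counts per library.

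Cell positioning and lipid mediator genes were also among them. Cxcr4, the receptor for CXCL12, was at 4.38 and 1.5 CPM in untreated DC3 and at 28.5, 24.7, 14 and 14.1 CPM in TLI libraries, with a log2 fold change of 3.14 ± 0.66 and an adjusted p of 0.127 by edgeR. Its fitted log2 change was 0.50 in DC1a, 0.52 in DC1b and -0.12 in DC2. The difference between the DC3 change and the mean of these did not pass the threshold (2.84 ± 0.69, adjusted p 0.466, edgeR interaction contrast). Cxcl2, a chemokine for neutrophils, was at 2.58 and 0.571 CPM against 36.6, 15.2, 5.25 and 5.04 CPM. Ptgr2, which degrades a prostaglandin E2 metabolite, was at 5.44 and 1.32 CPM against 21.2, 27, 33 and 27.9 CPM, with TLI levels as high in batch 2 as in batch 1. The last 3 were the hemoglobin genes Hbb-bt, Hbb-bs and Hba-a2. Hbb-bs was at 37.9 and 5.6 CPM in untreated DC3, 38280 and 5149 CPM in TLI pools 1 and 2, and 57 and 147 CPM in TLI pools 3 and 4 (adjusted p 0.172).

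Among the lower genes, Birc2 and Zfp281 came closest to the threshold, with adjusted p of 0.0513 for both by edgeR. Birc2, a ubiquitin ligase that restrains noncanonical NF-kB signalling, was at 108 and 81.5 CPM in untreated DC3 and at 27.8, 17.3, 20.4 and 46.2 CPM in TLI pools 1 to 4, with a log2 fold change of -2.01 ± 0.35. Zfp281, a zinc finger repressor, was at 55.7 and 67.6 CPM in untreated and at 11.4, 1.92, 9.14 and 6.65 CPM in TLI libraries, with a log2 fold change of -3.55 ± 0.62. For both genes TLI pool 2 was the lowest library. Top1, the DNA topoisomerase that relaxes supercoils ahead of polymerases, was at 219.5 and 247 CPM against 97.5, 66.1, 105 and 139 CPM (adjusted p 0.101). Foxp1, a forkhead repressor active in lymphoid and myeloid cells, was at 89.9 and 226 CPM against 54.8, 26.2, 48.8 and 57.9 CPM (adjusted p 0.209). Safb2, a nuclear matrix protein, and Dync1h1, the dynein heavy chain, had mean levels of 102 ± 30.4 and 72.8 ± 9.78 CPM in untreated and of 23.6 ± 5.52 and 26.6 ± 8.81 CPM in TLI DC3 (SD, n = 2 and 4).

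Adam19, Adam23 and Adam11 belonged to the ADAM family of membrane proteins. Adam19, an active sheddase, was at 216 and 163 CPM in untreated DC3 and at 93.1, 63.7, 85.2 and 66.6 CPM in TLI libraries, with an adjusted p of 0.157 by edgeR. Adam23, which lacks protease activity, was at 22 and 20.4 CPM against 3.14, 0.675, 2.5 and 0.604 CPM. Adam11, which also lacks it, was at 18 and 3.46 CPM in untreated libraries and had no count in the 4 TLI libraries. The remaining 3 had no level above 3.63 CPM in a TLI library. Mefv, which encodes the pyrin inflammasome sensor, was at 26.1 and 25.9 CPM against 0.344, 0.107, 3.63 and 0 CPM. Sspo, which encodes a secreted brain glycoprotein, was at 20.7 and 24.8 CPM against 0.0982, 0, 0.0648 and 0 CPM. Mcpt1, a mast cell protease, was at 47.2 and 26.5 CPM against 0, 0, 0 and 0.0863 CPM, and it was at 0 in all untreated libraries of the other 3 populations but reached 164.8 CPM in a TLI DC1b library.

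**Figure D4:**
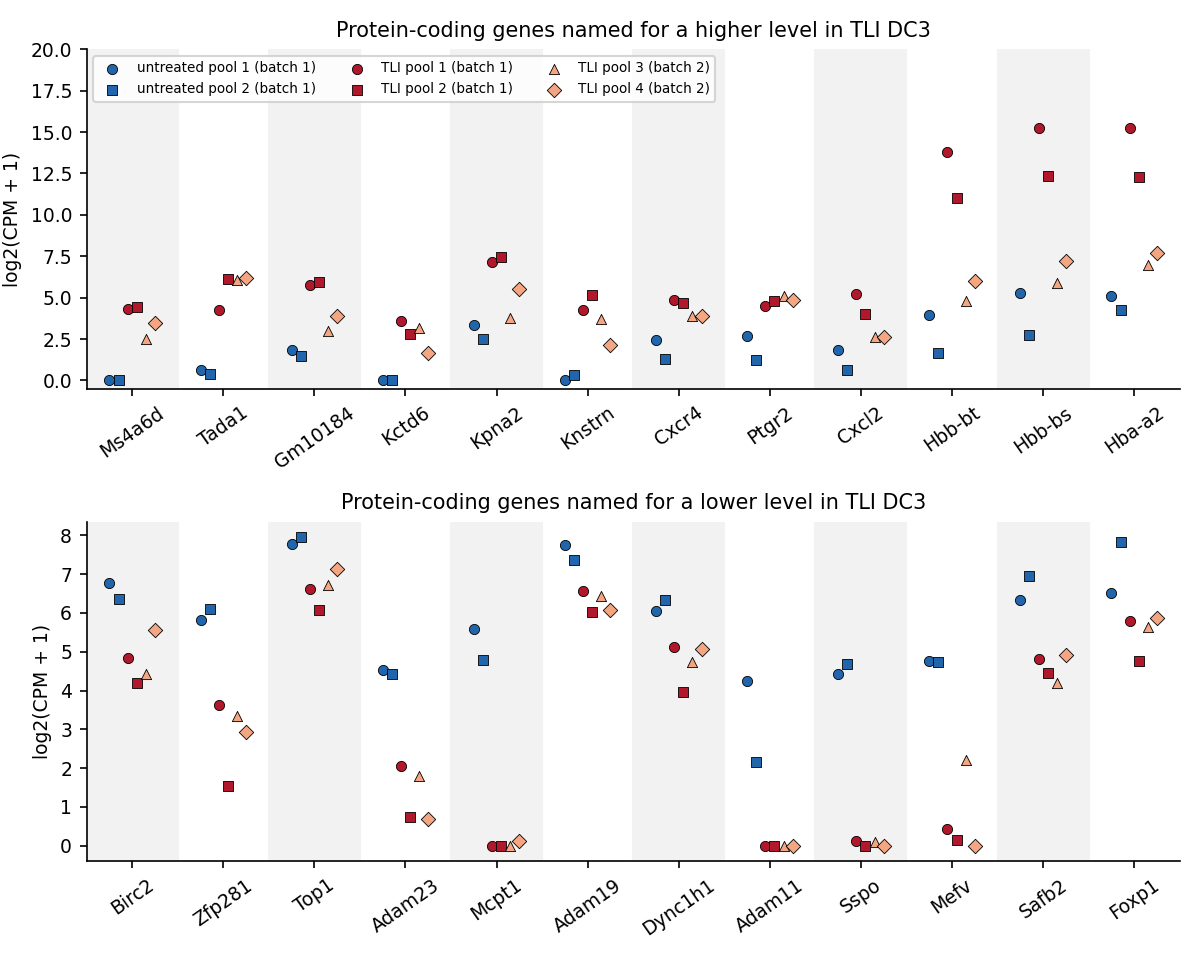
Levels in log2(CPM + 1) of the 12 protein-coding genes named for a higher and the 12 named for a lower level in TLI DC3, 1 point per library, in order of the naming rule. Ms4a6d and Tada1 passed the threshold and the other 22 did not, and Hbb-bs reached 38280 CPM in TLI pool 1.

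The second question was whether gene groups of DC biology moved together. Of the 654 genes tested that belong to at least 1 of the 36 lists, none passed the threshold by edgeR. At an unadjusted p under 0.05, 102 of the 654 were higher and 17 lower, where 3.89% of all genes were higher and 6.54% lower. DESeq2 called 69 of the 654, against 730 of all 19597 genes. With the pool of mice as a random effect, limma-voom called 11 of the 654, against 113 of all 19597. The groups are described by how many members had non-overlapping levels and by their medians. Cell cycle genes were mostly higher in batch 1. In both batch 1 TLI libraries, 33 of its 40 tested genes lay above both untreated libraries, or 82.5%, where 15.6% of all genes tested did so, and none lay below. With the batch 2 pools included, 6 of 40 lay above (15%), against 4.21% of all genes. All 40 had a positive fitted log2 fold change, with a median of 2.27, and 13 had an unadjusted p under 0.05 (32.5%, against 3.89% of all genes in this direction). The summed level was 1013 and 621 CPM in untreated DC3, 3898 and 2833 CPM in TLI pools 1 and 2, and 991 and 1271 CPM in TLI pools 3 and 4. In batch 2, TLI pool 3 lay within the untreated range.

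Genes of mitosis were among these members. Birc5, which encodes survivin, was at 45.2 and 14.1 CPM in untreated DC3 and at 449, 145, 65.3 and 93.3 CPM in TLI pools 1 to 4 (log2 fold change 3.00 ± 0.76, adjusted p 0.248, edgeR). Nusap1, a spindle protein, was at 2.9 and 0 CPM against 101, 70.7, 7.85 and 41 CPM. Cdc20, an activator of the anaphase-promoting complex, was at 3.48 and 0 CPM against 51.9, 75.9, 16.1 and 14.2 CPM. Each of these 3 separated the groups in all libraries. Ccnb1, the mitotic cyclin B1, was at 2.97 and 0.143 CPM in untreated and at 80.2, 109, 0 and 20.4 CPM in TLI libraries, so TLI pool 3 overlapped the untreated ones. Replication genes differed less, with Pcna, the sliding clamp, at 232 and 247 CPM against 424, 329, 146 and 195 CPM. The erythroid, T cell and NK cell markers given above were highest in the same TLI pools 1 and 2, and their part in the cell cycle levels was not tested.

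The erythroid list had 13 of 14 tested members above both untreated libraries in batch 1 (92.9%, against 15.6% of all genes) and 4 of 14 in all 4 TLI libraries (28.6%, against 4.21%), which were the hemoglobin genes. Car1, a carbonic anhydrase of red cell precursors, was at 0 and 0.25 CPM in untreated DC3, 344 and 555 CPM in TLI pools 1 and 2, and 0 CPM in TLI pools 3 and 4. High erythroid levels were not limited to DC3, since the summed level reached 133123 CPM in a TLI DC1a library, 70091 CPM in a TLI DC1b library and 44962 CPM in a TLI DC2 library. In the untreated libraries of those populations it did not exceed 2153 CPM. With the hemoglobin genes removed before scaling, the comparison of TLI and untreated DC3 again gave 5 calls, the same genes.

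The summed NK and T cell markers were also highest in TLI pools 1 and 2. The summed B cell markers were lowest there, at 16954 and 10961 CPM. They were at 33602 and 18914 CPM in untreated DC3 and 30240 and 55776 CPM in TLI pools 3 and 4. That order is mainly the order of Igkc. It took 3.7% and 2.02% of the counts in untreated DC3 and 1.49%, 0.93%, 3.25% and 5.44% in TLI pools 1 to 4. The sum without Igkc was not examined. Of the 14 NK cell markers tested, 11 lay above both untreated libraries in batch 1 (78.6%, against 15.6% of all genes), and 1, Klrd1, in all 4 TLI libraries (7.14%, near the 4.21% of all genes). Ncr1, the NKp46 receptor, was at 30.3 and 45.9 CPM in untreated DC3, 1152 and 328 CPM in TLI pools 1 and 2, and 0 CPM in TLI pools 3 and 4. Nkg7, a granule membrane protein, was at 121 and 109 CPM, then 1350 and 356 CPM, then 24.8 and 49.4 CPM in the same order. Of 16 T cell markers, 10 lay above in batch 1 (62.5%) and none in all 4 TLI libraries. Cd3e, part of the T cell receptor complex, had no count in untreated DC3 or in TLI pools 3 and 4, and was at 28.3 and 12.9 CPM in TLI pools 1 and 2.

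Chemokine genes included members of both kinds. Of 21 tested, 8 lay above both untreated libraries in batch 1 (38.1%, against 15.6% of all genes) and 4 in all TLI libraries (19%, against 4.21%). None lay below in batch 1 or in all TLI libraries, where 20.5% and 9.29% of all genes did. Ccl3 was at 49.2 and 50.1 CPM in untreated DC3 and at 706, 59.7, 86.4 and 120.2 CPM in TLI pools 1 to 4, and Ccl9 was at 4.07 and 8.1 CPM against 19.9, 19.8, 26 and 16.6 CPM. Both separated the groups, and neither passed the threshold (adjusted p 0.387 and 0.476, edgeR). Xcl1, the ligand of XCR1 and a product of NK and T cells, was at 21.5 and 24.6 CPM in untreated and at 480, 71.8, 15.2 and 0 CPM in TLI libraries. Ccl5, which NK and T cells also make, was at 182 and 117 CPM against 1276, 205, 100.3 and 76.6 CPM. Xcl1 and Ccl5 were highest in TLI pool 1, which also had the highest NK cell marker sum. Ccl5 is itself a member of the NK cell list, so its level is part of that sum. The part of NK cells in these chemokine levels was not tested.

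Many monocyte, macrophage and lysosomal genes were higher, mainly in batch 1. Among 20 monocyte and macrophage markers, 10 lay above both untreated libraries in batch 1 (50%, against 15.6% of all genes) and 3 in all TLI libraries (15%, against 4.21%). C1qc, a complement component of macrophages, had no count in untreated DC3 and was at 25.1, 24.8, 0 and 0.173 CPM in TLI pools 1 to 4. Fcgr4, an activating Fc receptor, was at 0 and 0.0357 CPM in untreated and at 3.29, 8.53, 0.584 and 0.576 CPM in TLI libraries, with no overlap. Ccr2, by contrast, was at 216 and 210 CPM in untreated and at 169, 385, 426 and 483 CPM in TLI libraries. Of 25 lysosomal genes, 13 lay above in batch 1 (52%) and 4 in all TLI libraries (16%), against the same shares of all genes. These included Lamp2, Lipa and Asah1, which encode a membrane protein, the acid lipase and acid ceramidase. Asah1 was at 61.2 and 71.7 CPM in untreated DC3 and at 120, 212, 119 and 116 CPM in TLI libraries (log2 fold change 1.48 ± 0.42, adjusted p 0.305). The summed level of the lysosomal genes was not higher, at 22550 and 32331 CPM in untreated DC3 and 26521, 29929, 20875 and 24861 CPM in TLI pools 1 to 4.

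Among the DC transcription factors more members lay below than above. Of 31 tested, 13 lay below both untreated libraries in both batch 1 TLI libraries (41.9%, against 20.5% of all genes) and 4 above. In all 4 TLI libraries 5 lay below (16.1%, against 9.29%). These 5 were Irf4, Batf2, Batf3, Tcf4 and Runx3. At an unadjusted p under 0.05 by edgeR, 2 of the 31 were lower (6.45%, near the 6.54% of all genes) and 1 higher (3.23%, near 3.89%). Irf4, which directs CD172+ DCs and plasma cells, was at 50.4 and 83.5 CPM in untreated DC3 and at 21.7, 2.74, 9.86 and 0.201 CPM in TLI libraries, with a log2 fold change of -2.23 ± 1.34 and an adjusted p of 0.567. Batf3, which the CD8+ lineage requires, was at 247 and 262 CPM against 203, 140.3, 192 and 223 CPM, and its highest TLI library came close to the untreated ones. Bcl6, a repressor needed by this lineage, was at 54.1 and 75.7 CPM in untreated, 26.1 and 16 CPM in TLI pools 1 and 2, and 92 and 87.7 CPM in TLI pools 3 and 4 (log2 fold change -1.69 ± 0.31, adjusted p 0.0696). The batch 2 TLI libraries were thus above the untreated ones and the batch 1 libraries below them. Zbtb46, the factor that marks classical DCs, was the only one of the list above in all TLI libraries, at 46.1 and 27.2 CPM against 72.4, 134, 106 and 64.2 CPM.

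**Figure D5:**
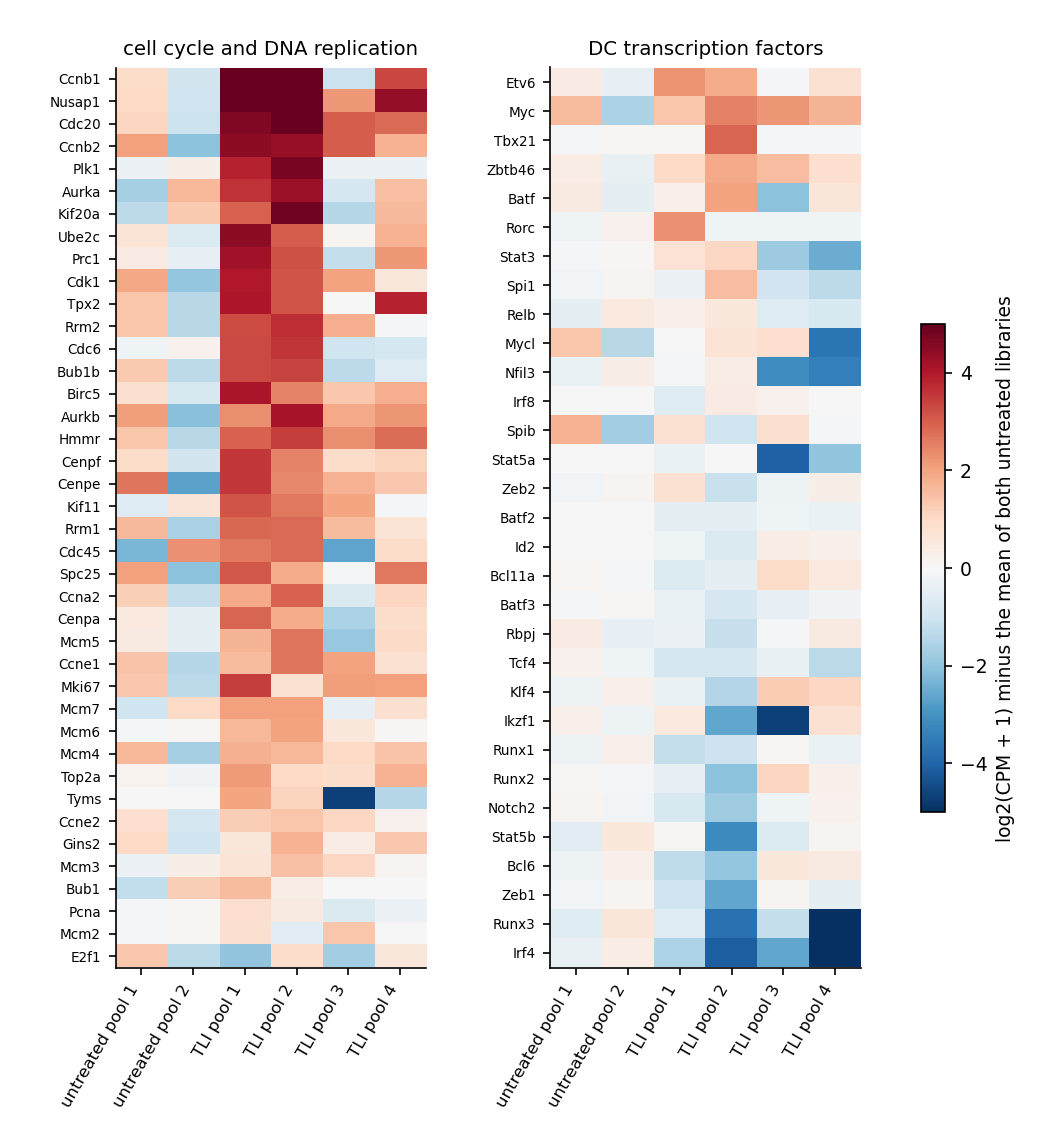
Heat map of cell cycle genes (left) and DC transcription factors (right) in the 6 DC3 libraries, as log2(CPM + 1) minus the mean of both untreated libraries, with genes ordered by their mean in TLI pools 1 and 2. Most cell cycle genes are red in TLI pools 1 and 2 and paler in TLI pools 3 and 4, while Irf4 is blue in all 4 TLI libraries.

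Plasma cell genes were lower in part. Of 8 tested, 5 lay below both untreated libraries in all 4 TLI libraries (62.5%, against 9.29% of all genes), with a median log2 fold change of -2.22, and none had an unadjusted p under 0.05 by edgeR. Irf4 was among these 5 and is counted on the list of DC transcription factors as well. Mzb1, a chaperone of antibody-secreting and plasmacytoid cells, was at 549 and 267 CPM in untreated DC3 and at 86.7, 56.4, 90.8 and 139 CPM in TLI libraries. Jchain, which joins IgM and IgA into polymers, was the most abundant member, at 7763 and 3812 CPM against 5483, 866, 2043 and 3478 CPM, and overlapped. Among 16 B cell markers, 6 lay below in all TLI libraries (37.5%), including Cd79b at 195 and 54.8 CPM against 26.9, 20.6, 33.2 and 35.8 CPM. Ms4a1, which encodes CD20, went the other way, with 0 and 0.107 CPM in untreated and 9.82, 2.27, 4.57 and 9.07 CPM in TLI libraries.

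The antigen presentation and maturation genes H2-Ab1, Cd74, Ccr7 and Cd83 were lowest in TLI pools 3 and 4, while TLI pools 1 and 2 differed from each other for several of them. H2-Ab1 was at 7159 and 8146 CPM in untreated DC3, 6585 and 18281 CPM in TLI pools 1 and 2, and 4324 and 4644 CPM in TLI pools 3 and 4. Cd74, the invariant chain, was at 11190 and 17988 CPM, then 12789 and 39758 CPM, then 4336 and 6759 CPM in the same order. TLI pool 2 had the highest and TLI pools 3 and 4 the lowest levels of both. Of 14 class II genes tested, none lay above in all TLI libraries and 1, Ciita, lay below (7.14%), near the 4.21% and 9.29% of all genes. After the batch term, 10 of the 14 had a positive fitted log2 fold change. At an unadjusted p under 0.05 by edgeR, 3 were higher (21.4%, against 3.89% of all genes) and 0 lower (against 6.54%). Ccr7, which guides mature DCs to T cell zones, was at 97.3 and 91.7 CPM in untreated, 58.7 and 65.8 CPM in TLI pools 1 and 2, and 1.33 and 0.288 CPM in TLI pools 3 and 4. Its groups did not overlap, with a log2 fold change of -1.35 ± 0.82 and an adjusted p of 0.569. Cd83, another maturation marker, was at 545 and 914 CPM, then 923 and 2855 CPM, then 218 and 101 CPM.

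Targets of p53, the damage-activated factor that irradiation is known to engage, gave small counts. Of 32 tested, none lay above or below in all 4 TLI libraries, shares that were 4.21% and 9.29% over all genes. None had an unadjusted p under 0.05 by edgeR, and the median log2 fold change was 0.28. In batch 1, 5 lay above (15.6%, the share of all genes) and 2 below (6.25%, against 20.5%). Cdkn1a, the cell cycle inhibitor p21, was at 19.4 and 29.7 CPM in untreated DC3, 55.1 and 56.1 CPM in TLI pools 1 and 2, and 9.3 and 3.25 CPM in TLI pools 3 and 4. Bax, a death effector, was at 63 and 130 CPM against 81.3, 129, 42.5 and 39.3 CPM.

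The third question was which TLI differences in DC3 departed from those in DC1a, DC1b and DC2. In the interaction contrast 3 genes passed the threshold (0.0153%), and 1165 had an unadjusted p under 0.05 (5.94%). Ms4a6d was given above. Igkv4-53, a kappa variable gene, was at 249.6 and 797 CPM in untreated DC3 and did not exceed 0.498 CPM in TLI DC3, with an interaction of -15.2 ± 2.37 and an adjusted p of 0.0457. Its adjusted p in DC3 itself was 0.11. Gstp2, a glutathione transferase, overlapped between the groups in DC3, at 46.4 and 35.5 CPM in untreated and 29.2 to 37.4 CPM in TLI libraries, and its interaction (-4.57 ± 0.46, adjusted p 0.000563) came from DC2, where the untreated mean was 0 and the TLI mean 38.9 CPM. These 2 genes were named after their values were seen.

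The nuclear long noncoding RNAs Malat1 and Neat1 were examined after their values were seen. Malat1, which localises to splicing speckles, was at 35487 and 31312 CPM in untreated DC3 and at 13978, 3208, 13728 and 9576 CPM in TLI pools 1 to 4. Neat1, the scaffold of paraspeckles, was at 679 and 986 CPM against 277, 197, 281 and 314 CPM. Both separated the groups in both batches, and TLI pool 2 had the lowest level of each. The log2 fold changes were -1.84 ± 0.48 for Malat1 and -1.85 ± 0.37 for Neat1, with adjusted p of 0.256 and 0.101 by edgeR. For Malat1 every TLI library was below every untreated one within each of the 4 populations, while for Neat1 the groups overlapped in DC1b and DC2. Over the 2731 long noncoding genes tested, 365 lay below in all TLI DC3 libraries (13.4%, against 9.29% of all genes) and 46 above (1.68%, against 4.21%). The untreated libraries also had counts for more genes, 22056 and 24407, than TLI pools 1 to 4, with 21218, 17851, 17914 and 18362, and its part in these values was not tested.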

How the data were processed

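RNA of sorted DCs had been amplified with a low-input SMARTseq kit and made into libraries with a KAPA HyperPlus kit. The authors trimmed reads with Trimmomatic, aligned them to GRCm38 with HISAT2 and estimated counts per gene with StringTie, and the labels also name DESeq2. The deposited values are whole-number estimated counts for 47729 gene identifiers in 23 libraries, without normalization and with no row that names no gene. Strand use in counting is not given in the sources used here, and neither is the TLI regimen. The DC3 gate is given only as CD8- CD172lo. Gene symbols and positions came from GENCODE M21, which matched 47310 identifiers.

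The counts were analysed in R 4.3.3 with edgeR 4.0.16: genes were kept by filterByExpr over the groups, libraries were scaled by TMM, and glmQLFit and glmQLFTest fitted group and batch over all 23 libraries, which share one estimate of spread. Contrasts were TLI minus untreated DC3, and this difference minus its mean in DC1a, DC1b and DC2. The p-values were adjusted by Benjamini-Hochberg. Alternatives used DESeq2 1.42.0, limma 3.58.1, other filters, other sets of libraries and a replicate block. The scripts were tested on simulated data. The floor for an undetected gene was 3 counts per library, and counting intervals do not cover differences between pools.

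Named protein-coding genes were the 12 with the largest increase and the 12 with the largest decrease past the threshold, at 5 CPM or more in the higher group and with no overlap of groups. As fewer passed, the next by smallest unadjusted p followed. Members of the lists past the threshold, the sorting markers and up to 5 interaction genes per direction were added. The members and lists were chosen with earlier results of these data known. Pools with the same number in TLI and untreated DC3 did not deviate together (r = -0.00121 over 19597 genes), so the number was not used as a pair in the reported fit. Populations sorted from the same TLI pools did deviate together (r = 0.207 for DC3 with DC1a and 0.215 with DC1b, pool 1 minus pool 2), which the reported fit and its interaction contrast do not model, while untreated pools gave r of 0.0112, 0.00966 and -0.00199 with DC1a, DC1b and DC2. No pair of DC3 libraries was identical. Single values of a few list members are not reported here.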

Additional observations from a re-analysis of the deposited data

Results flagged for a closer look

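In 62 groups of 4 TLI DC3 libraries, 1 per named gene or list, 6 had a library whose gap to its nearest neighbour was a large share of the group's range by Dixon's test, and chance flags about 1 in 20 groups. The share was 0.94 for Tada1, with TLI pool 1 lowest, and 1 for Mcpt1, where TLI pool 4 alone had counts. Those were 3 counts, the floor for an undetected gene, so Mcpt1 was at the floor in all 4 TLI libraries. It was 0.841 for the summed neutrophil markers and 0.832 for the summed chemokines, with TLI pool 1 highest in both. For the summed basophil and mast cell markers it was 0.84, with TLI pool 2 lowest, and for the lipid handling genes 0.94, with TLI pool 2 highest.

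The TLI difference of Ms4a6d was larger in DC3 than in the mean of DC1a, DC1b and DC2 by 8.48 on the log2 scale (adjusted p 0.0079, edgeR), with no counts in either untreated DC3 library.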

How the results depend on the processing

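The count of genes past the threshold in TLI against untreated DC3 was 5 in the reported fit. It was 5, the same genes, with DESeq2's size factors and with the hemoglobin genes removed. With the pool number as a replicate block it was 4, all shared with the reported 5. With a batch term for each population it was also 4, of which only 2 were shared. It became 730 with DESeq2's test (62.6% higher, against 40% in the reported fit), 113 with limma-voom and the pool of mice as a random effect (31% higher, 3 shared; correlation within pools 0.00267), a change of both the test and the blocking, 60 without a filter on low counts, 10 with the filter over DC3 libraries and 18 with at least 10 counts in 2 DC3 libraries (27.8% higher). It was 0 with the batch 1 DC3 libraries and 0 with the 6 DC3 libraries and batch, where 1036 genes had an unadjusted p under 0.05. It was 1 with the 6 without batch, and 0 were shared with the reported 5. It was 2 with the batch 1 libraries of all populations (1 shared) and 2 with the 23 libraries without batch (2 shared). Without the batch 1 TLI DC3 libraries it was 3 (1 shared), an alternative chosen after seeing the data as was the removal of hemoglobin genes. Leaving out 1 DC3 library gave 2 to 7.

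For the interaction, 3 genes passed, and 462 did with DESeq2, 32 without the filter, 33 with limma-voom and that random effect, 1 with the batch 1 libraries of all populations, and 1 to 5 with 1 library left out. Of list members, 0 passed, with 69 by DESeq2, 12 without the filter, 11 by limma-voom with it, 1 with the DC3 filter, 2 with the count minimum, 1 with a batch term for each population, and 0 to 1 with 1 library left out. The cause of these differences was not tested. The replicate block ended the call of Tada1 (adjusted p 0.0699, edgeR) and of no other of the 5 genes, and kept 2 of the 3 interaction genes. The numbers mark no stated pairing.

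Over the 21 alternatives the call was kept in 18 for Ms4a6d, 14 for Gm37472, 13 for Rn7sk, 10 for Igkv8-16 and 8 for Tada1, and no direction reversed for a named gene. The 2 untreated libraries and a biological coefficient of variation of 1.08 limit what these tests can detect.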

Other observations

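Erythroid genes outside the named set had the same library pattern. Rhd, a red cell surface protein, had no count in untreated DC3 or in TLI pools 3 and 4 and was at 164 and 57.9 CPM in TLI pools 1 and 2, with an adjusted p of 0.0513 by edgeR. Immediate early gene Ier5 was at 278 and 306 CPM in untreated DC3, 104 and 55.4 CPM in TLI pools 1 and 2, and 757 and 574 CPM in TLI pools 3 and 4. Its batch 1 TLI levels lay below and its batch 2 TLI levels above the untreated ones, and the log2 fold change after the batch term was -1.62 ± 0.32 (adjusted p 0.0943).

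Basophil and mast cell genes were high in untreated pool 1, with Mcpt8, a basophil protease, at 432 CPM there and at or below 40.3 CPM in the other 5 libraries. Cpa3, a mast cell carboxypeptidase, was at 299 and 27.2 CPM in untreated DC3 and at 20.7, 0.107, 0.584 and 0.95 CPM in TLI libraries. In TLI pool 1, S100a8, an alarmin of neutrophils, was at 38.5 CPM, against 0 CPM in both untreated libraries and at most 2.85 CPM in TLI pools 2 to 4.

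Ackr3, an atypical receptor that scavenges CXCL12, was at 15.8 and 26.7 CPM in untreated DC3 and at 0.196, 0.107, 0.0973 and 1.06 CPM in TLI libraries, with a log2 fold change of -5.91 ± 2.51 and an adjusted p of 0.441. Its groups did not overlap. Csf2rb, the shared signalling chain of the GM-CSF and IL-3 receptors, was at 166 and 186 CPM in untreated DC3 and at 63.3, 69.2, 51 and 73.4 CPM in TLI libraries (adjusted p 0.567). These genes were chosen after their values were seen.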
